A study of Mus musculus with 2 samples.

Results

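Amino acid transporter genes of the solute carrier families Slc1, Slc3, Slc6, Slc7, Slc36, Slc38 and Slc43 were followed in mouse liver with and without acetoaceto-o-toluidide (AAOT), an aromatic amide. They were taken by gene symbol, and the set was chosen with earlier results of these data known. Among the 15526 listed genes, 45 carry such a symbol. Slc1a2 and Slc7a11, 2 of these 45, were set aside, and 43 remained. Of the 43, 41 encode carriers or carrier subunits and 2, Slc36a1os and Slc7a6os, are transcripts named for lying opposite a carrier gene. The label covers more than amino acids, since Slc6 also holds carriers of creatine, betaine and serotonin, and Slc43a3 is known as a carrier of purine bases.

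The study holds 2 RNA sequencing libraries, each a mix of liver RNA from 3 NOG-TKm30 females. The control mice received 0% AAOT and the other mice 0.3% AAOT over 4 weeks, and the age given is 22 weeks. All mice of both groups are NOG, a severely immunodeficient strain, and carry a mutant herpes simplex virus thymidine kinase (clone 30) driven by the transthyretin enhancer and promoter, which is active in hepatocytes; the labels also name C57BL as the background. With 1 library per group there is no estimate of the spread between mice or preparations, so no test was made. Each ratio below is that of these pools, and the interval in brackets after it is the exact 95% interval for 2 read counts conditional on their sum, which covers counting error only and treats reads as independent molecules.

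Amino acids cross membranes on carriers that differ in substrate and driving force. Sodium-coupled carriers of system A and system N concentrate small neutral amino acids and glutamine, the cationic carriers bring in arginine and lysine, and light chains of the Slc7 family work as exchangers only when bound to a heavy subunit of the Slc3 family. In liver, these carriers supply the urea cycle, gluconeogenesis, glutathione and protein synthesis, and some of them sit on lysosomes, where the amino acid level is read by the growth kinase complex mTORC1.

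The amino acid transporters followed here leave out Slc1a2 and Slc7a11. No followed transporter with a mean of at least 10 CPM (reads scaled by library size) differed by 1.5-fold between the pools. A size of 1.2-fold was picked once the values were known, and at it 5 of the 18 such carriers were higher in the AAOT pool, where 9.33% of all genes with such a mean were. These 5 were 1.245-fold to 1.31-fold higher, namely the cationic carrier Slc7a2, the lysosomal carrier Slc36a1 and the osmolyte carriers Slc6a6, Slc6a12 and Slc6a13. The serine and alanine carrier Slc1a4 was 1.44-fold lower, but its mean reached 10 CPM only through its level in the control pool. The most abundant of the followed carriers, Slc38a3 and Slc38a4, were within 11% of equality.

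Levels are given as CPM, the authors' read counts scaled by library size, with the control pool before the AAOT pool throughout. The libraries held 18801241 reads (control) and 16528533 reads (AAOT) assigned to genes, so that 1 read stood for 0.0539 CPM and 0.0598 CPM. Counts of genes used log2((AAOT + 1)/(control + 1)) and a floor of 10 CPM on the mean of both pools, which 7761 genes passed. The 5 hepatocyte markers Alb, Ttr, Apoa1, Serpina1a and Tat were all far above the floor and summed to 73368 and 63584 CPM. The summed levels of the marker lists of other liver cells were 294 and 316 CPM (Kupffer cells), 601 and 634 CPM (sinusoidal endothelium), 516 and 453 CPM (stellate cells), 45.1 and 35.7 CPM (cholangiocytes) and 321 and 351 CPM (erythroid cells). Lymphocyte and neutrophil markers stayed below 1 CPM in sum, and the kidney list was represented by Lrp2, at 0.754 and 0.418 CPM. Of the pancreas list Cela1 was at 11.8 and 6.15 CPM, and of the intestine list Fabp2 was at 52.7 and 39.4 CPM. Of the 7 stellate cell markers 5 were above the floor, and all 5 were lower in the AAOT pool, where 4157 of all 7761 genes were lower. Of the 5 hepatocyte markers 4 were lower and 1 higher, and the 5 Kupffer cell markers above the floor were all higher. Sinusoidal endothelial markers above the floor were 2 higher and 3 lower, and erythroid markers 2 higher and 2 lower. The 1 cholangiocyte marker above the floor was lower. The part of these cell type differences in the carrier ratios was not tested, and in bulk liver fewer cells of a type and less RNA per cell cannot be told apart.

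Of the 43 genes, 18 had a mean of at least 10 CPM. Among these 18, 0 were at least 2-fold higher and 0 at least 2-fold lower, where 0.773% and 0.425% of all 7761 genes were. At 1.5-fold the counts were again 0 higher and 0 lower, beside 2.07% and 1.39% of all genes, shares that amount to less than 1 gene in a list of 18. The member nearest to 1.5-fold was Slc1a4, which did not reach it. At the smaller size of 1.2-fold, 1 of 18 was lower, beside 9.46% of all genes, and the 5 higher ones are those named above. The next member below 1.2-fold was Slc38a9, at 1.18-fold. The median log2 ratio of the 18 was 0.08, with quartiles of -0.02 and 0.29, and that of all 7761 genes was -0.02, with quartiles of -0.13 and 0.10. In all, 12 of the 18 (66.7%) had a ratio above 0, as did 46.4% of all genes.

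**Figure D1:**
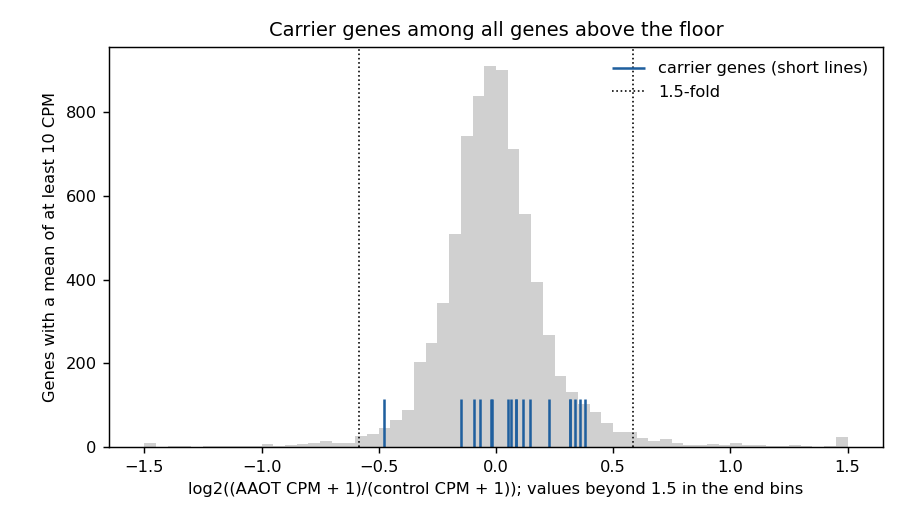
Histogram of the log2 ratio of AAOT to control CPM, each with 1 CPM added, over the 7761 genes with a mean of at least 10 CPM (grey), with the 18 amino acid transporter genes as short blue lines. All 18 lie between -0.48 and 0.38, inside the dotted lines at 1.5-fold.

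The counting interval lay wholly above equality for 7 of the 18 (Slc38a3, Slc38a2, Slc7a2, Slc6a6, Slc6a13, Slc6a12 and Slc36a1) and wholly below it for 1, Slc1a4. Among all genes above the floor, the same was true of 18.7% and 20.8%. Such an interval narrows with read number alone, and the 18 genes had from 369 to 50898 reads over both pools. For 17 of the 18, all but Slc1a4, the interval also lay inside 1.5-fold in both directions, so a larger difference between these libraries would have been visible at this depth.

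**Figure D2:**
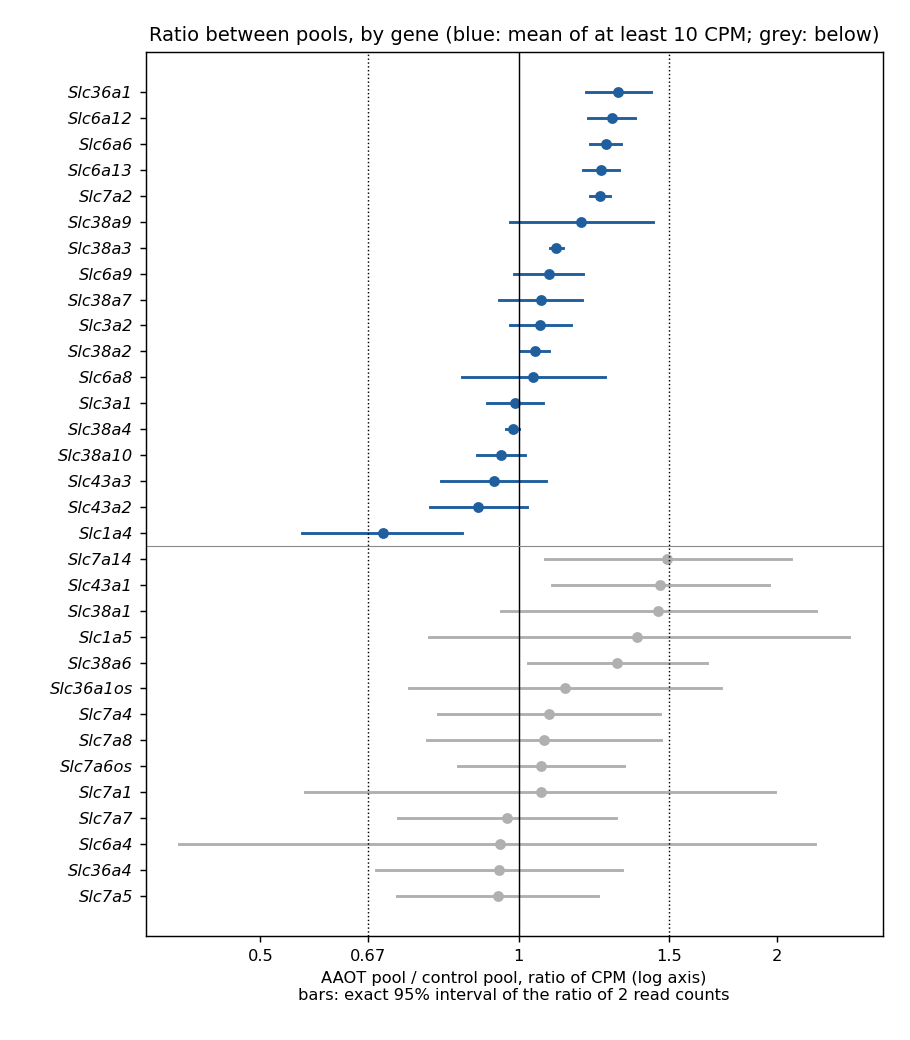
Ratio of CPM, AAOT pool over control pool, on a log axis, with the exact 95% counting interval, for the 18 genes with a mean of at least 10 CPM (blue) and 14 genes below it with at least 20 reads over both pools (grey). Slc36a1, Slc6a12, Slc6a6, Slc6a13 and Slc7a2 lie close together at the top, between 1.245 and 1.31, and Slc1a4 stands apart at the bottom of the blue set.

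System A and N carriers of the Slc38 family made up most of the reads of the followed carriers. Slc38a3 (SNAT3), a system N carrier that moves glutamine, histidine and asparagine in either direction across the hepatocyte membrane (chromosome 9, 107651154 to 107668968, GRCm38), was at 1372 and 1519 CPM, 1.11-fold higher in the AAOT pool (1.09 to 1.13). Slc38a4 (SNAT4; chromosome 15, 96994816 to 97055956), a liver-rich system A carrier and an imprinted gene in the mouse, was at 1268 and 1248 CPM, with a ratio of 0.984 (0.966 to 1.003). Slc38a4 was thus slightly higher in the control pool and Slc38a3 in the AAOT pool. The direction of Slc38a4 is not settled, because it turned positive under 2 of 5 other scalings of the libraries. Slc38a2 (SNAT2), the system A carrier that cells raise when amino acids are short, was at 292 and 305 CPM, 1.04-fold higher (1.005 to 1.09).

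Slc38a7 and Slc38a9 are lysosomal members of the same family. Slc38a7, a lysosomal glutamine and asparagine carrier, was at 34.9 and 37.1 CPM, with a ratio of 1.06 (0.9496 to 1.19). Slc38a9, the lysosomal arginine sensor upstream of mTORC1, was at 11.3 and 13.4 CPM, with a ratio of 1.18 (0.976 to 1.44). Both intervals include equality. Slc38a10, a less studied relative, was at 107 and 102 CPM, with a ratio of 0.954 (0.893 to 1.02). The 8 listed Slc38 genes together summed to 3095 and 3237 CPM, and of the 6 above the floor 4 were above 0 and 2 below.

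Of the 4 listed Slc7 genes grouped as cationic carriers, only Slc7a2 was above the floor. Slc7a2 (CAT-2; chromosome 8, 40862341 to 40922070), the liver carrier of arginine, lysine and ornithine, was at 543 and 676 CPM, 1.245-fold higher (1.21 to 1.28). Its relative Slc7a1 (CAT-1), the widespread form of most other tissues, had 23 and 22 reads. Slc7a4, whose substrate is not established, was at 5.06 and 5.50 CPM, and the lysosomal Slc7a14 at 3.61 and 5.38 CPM. Slc7a14 was 1.49-fold higher (1.07 to 2.08), the plain ratio closest to 1.5-fold among the genes with at least 20 reads, on 67 and 90 reads. About 7% (6.95%) of the exonic bases of Slc7a2 lie opposite the gene model Gm26584.

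Carriers of osmolytes, GABA, taurine, betaine and creatine were above equality in 4 of 4 genes over the floor, where 46.4% of all genes over it were. For 1 of the 4, Slc6a8, the interval includes equality. Slc6a6 (TauT; chromosome 6, 91684048 to 91759063), the sodium-coupled taurine carrier, was at 235 and 297 CPM, 1.26-fold higher (1.21 to 1.32). Slc6a13 (GAT2; chromosome 6, 121300288 to 121337721), which takes up GABA and taurine into hepatocytes, was at 166 and 207 CPM, 1.247-fold higher (1.19 to 1.31). Slc6a12 (BGT1; chromosome 6, 121342574 to 121365773), the betaine and GABA carrier, was at 95.7 and 123 CPM, 1.28-fold higher (1.204 to 1.37). These ratios overlap in their intervals and cannot be ordered. Slc6a13 and Slc6a12 lie head to tail on the same strand with 4852 bases between them, and 99.8% and 99.9% of the 50-base stretches of their longest transcripts are found in no other gene, so few of their reads could be split between them. The creatine carrier Slc6a8 was at 12.1 and 12.6 CPM, with a ratio of 1.04 (0.858 to 1.26) that includes equality.

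Of enzymes next to taurine and betaine, Csad and Cdo1 were lower, and Bhmt and Chdh, which have opposite roles for betaine, were higher. Of all genes above the floor, 46.4% were higher. Csad, which makes the taurine precursor hypotaurine, was 1.65-fold lower (1.59 to 1.72), at 371 and 224 CPM, and Cdo1, the cysteine dioxygenase one step before it, was 1.21-fold lower (1.19 to 1.23), at 1651 and 1361 CPM. Bhmt, which spends betaine to remake methionine, was 1.44-fold higher (1.42 to 1.47), and Chdh, which makes betaine from choline, was 1.17-fold higher (1.12 to 1.21), at 274 and 319 CPM. Csad, Cdo1 and Bhmt were in a list of enzymes next to the carried amino acids. Chdh, Slc5a3, the carrier of the osmolyte inositol, and Nfat5, the transcription factor of the osmotic response, were looked up after the values were seen. Slc5a3 was at 29.4 and 36.5 CPM, 1.24-fold higher (1.10 to 1.39), and Nfat5 at 67.4 and 77.0 CPM, 1.14-fold higher (1.06 to 1.24).

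**Figure D3:**
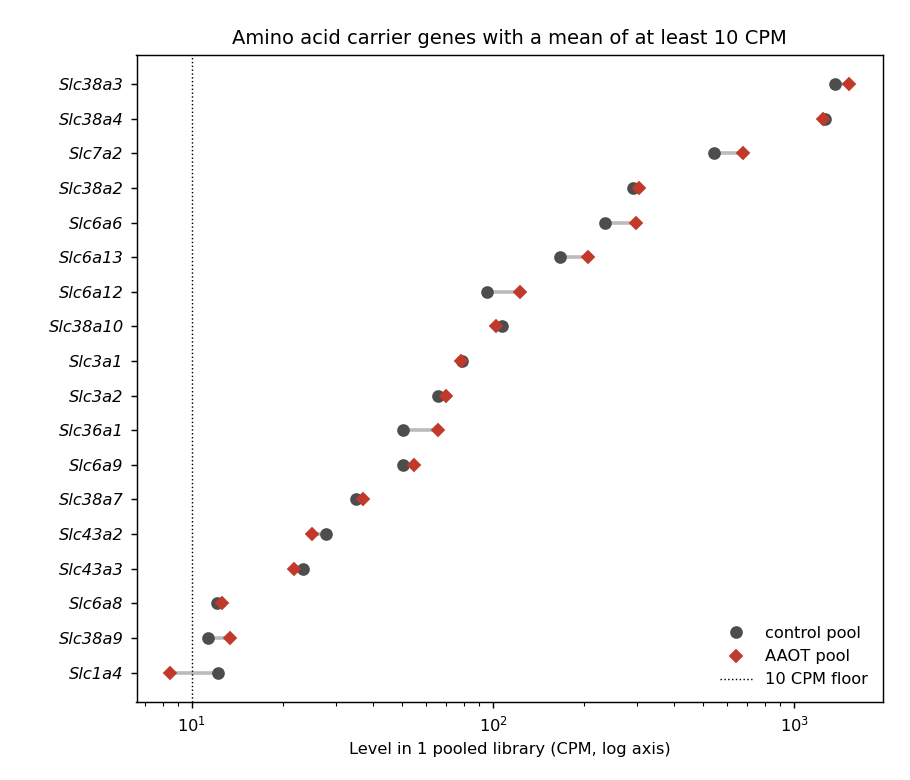
Level of the 18 genes with a mean of at least 10 CPM in the control pool (grey circles) and the AAOT pool (red diamonds), in CPM on a log axis, 1 pooled library each. The separation of the symbols is widest for Slc1a4, Slc36a1, Slc6a12, Slc6a6, Slc6a13 and Slc7a2, and the order of the genes by level is nearly the same in both pools.

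Among proton-coupled carriers, Slc36a1 had the highest ratio of the 18 genes. Slc36a1 (PAT1; chromosome 11, 55204322 to 55236330), which moves glycine, alanine and proline out of lysosomes together with protons, was at 50.4 and 65.9 CPM, 1.31-fold higher (1.197 to 1.43). Its relative Slc36a4 was at 4.47 and 4.24 CPM, with a ratio of 0.949 (0.682 to 1.32). The neighbouring transcript Slc36a1os was at 2.58 and 2.93 CPM.

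The followed members of the Slc1 family, which leave out Slc1a2, were scarce. Slc1a4 (ASCT1; chromosome 11, 20302180 to 20332713), which exchanges serine, alanine and cysteine, was at 12.2 and 8.49 CPM, 227 and 142 reads, 1.44-fold lower (1.16 to 1.79). It was the lowest ratio of the 18, from the gene with the fewest reads among them. Slc1a4 passed the floor on the mean only through the control pool, since its level in the AAOT pool was below 10 CPM. The glutamine exchanger Slc1a5 (ASCT2), abundant in dividing cells, had 25 and 31 reads. The glutamate carriers Slc1a1, Slc1a3, Slc1a6 and Slc1a7, best known from brain, retina and kidney, had at most 5 reads in either pool.

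Heavy subunits were well expressed and the followed light chains, which leave out Slc7a11, were not. Slc3a2 (4F2hc, CD98; chromosome 19, 8706882 to 8723369), the heavy subunit that brings most Slc7 light chains to the cell surface, was at 65.6 and 69.6 CPM, with a ratio of 1.06 (0.978 to 1.15). Slc3a1 (rBAT; chromosome 17, 85028347 to 85064241), the heavy subunit of the cystine carrier of kidney and gut, was at 79.1 and 78.2 CPM, with a ratio of 0.989 (0.918 to 1.07) whose sign changed under 4 of 5 other scalings. Of the exonic bases of Slc3a1, 26.5% lie opposite Prepl, and whether the counting used strand is not stated. None of the 6 listed light chains reached the floor. The large neutral amino acid exchangers Slc7a5 (LAT1), at 6.57 and 6.21 CPM, and Slc7a8 (LAT2), at 4.63 and 4.96 CPM, and the arginine exporter Slc7a7, at 5.55 and 5.38 CPM, all had intervals that include equality. Slc7a6 had 2 and 11 reads, a plain ratio of 6.10 with an interval from 1.33 to 56.7, which with 1 CPM added came to 1.496, just short of 1.5-fold. Slc7a13, a light chain that pairs with Slc3a1 in kidney, had 2 and 0 reads.

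Levels of different genes can be compared only per length, here CPM per kilobase of the longest GENCODE transcript. On this scale Slc3a2 stood at 23.3 and 24.7, and its followed partners Slc7a5, Slc7a6, Slc7a7 and Slc7a8 summed to 5.47 and 5.52. Slc7a11, set aside above, is not in this sum. The heavy subunit thus exceeded these 4 light chains together by 4.27-fold and 4.49-fold, or by 9.31-fold and 9.41-fold where the median transcript length of each gene is used instead. Over all members, Slc38a3 was the highest per length in both pools, at 435 and 482, followed by Slc38a4, at 322 and 317. Slc6a13 came next, at 74.5 and 92.8, ahead of Slc7a2, at 68.7 and 85.5, Slc38a2, at 62.7 and 65.5, and Slc6a6, at 38.1 and 48.1. The places of Slc6a13 and Slc7a2, and those of Slc38a3 and Slc38a4, depend on the transcript length used: with the median length of the transcripts of each gene Slc38a4 came before Slc38a3, and Slc6a6 before Slc7a2 and Slc6a13.

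The Slc43 carriers did not share one direction. Slc43a2 (LAT4), which lets leucine, isoleucine and phenylalanine pass along their gradient, was at 27.9 and 25.1 CPM, with a ratio of 0.898 (0.788 to 1.02). Its relative Slc43a1 (LAT3) went the other way, at 4.58 and 6.69 CPM, 1.46-fold higher (1.09 to 1.96), on 85 and 112 reads. Slc43a3 was at 23.3 and 21.8 CPM, with a ratio of 0.935 (0.812 to 1.08). The glycine carrier Slc6a9 (GlyT1) was at 50.2 and 54.5 CPM, with a ratio of 1.08 (0.989 to 1.19), and 30.2% of its exonic bases lie opposite other genes, B4galt2 and Ccdc24 among them.

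Of the 25 genes below the floor, 14 had at least 20 reads over both pools and 11 had from 2 to 13 reads. Among the 14, 10 were above 0 and 4 below, and 3 had a counting interval wholly above equality: Slc7a14, Slc43a1 and Slc38a6. The matching share of all genes below the floor was not computed, so whether 3 is more than usual is not known. Slc38a6 was at 7.05 and 9.20 CPM, 1.30-fold higher (1.03 to 1.66), but only 55.8% of its 50-base stretches are unique, so the split of its reads is uncertain. The system A carrier Slc38a1 was at 2.26 and 3.29 CPM, with an interval of 0.955 to 2.23, and the serotonin carrier Slc6a4 had 14 and 12 reads. Slc7a6os was at 8.94 and 9.50 CPM. The remaining low genes, which include Slc6a7, Slc6a18, Slc6a20b and Slc7a15, had 5 or fewer reads in each pool apart from Slc7a6, and a difference in them was not detectable at this depth.

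Summed over all 43 genes, the level was 4507 and 4934 CPM, 1.09-fold higher with AAOT (1.08 to 1.11). These genes held 0.445% and 0.4995% of all CPM. The net difference of 427 CPM came mostly from 5 genes, which added 411 CPM: Slc38a3 with 147 CPM, Slc7a2 with 133 CPM, Slc6a6 with 62.1 CPM, Slc6a13 with 41.1 CPM and Slc6a12 with 27.2 CPM. Slc38a3 and Slc38a4 held 58.6% and 56.1% of the summed CPM, while the cationic carriers held 12.3% and 13.95% and the osmolyte group 11.3% and 12.98%. CPM sums count reads and favour long transcripts.

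**Figure D4:**
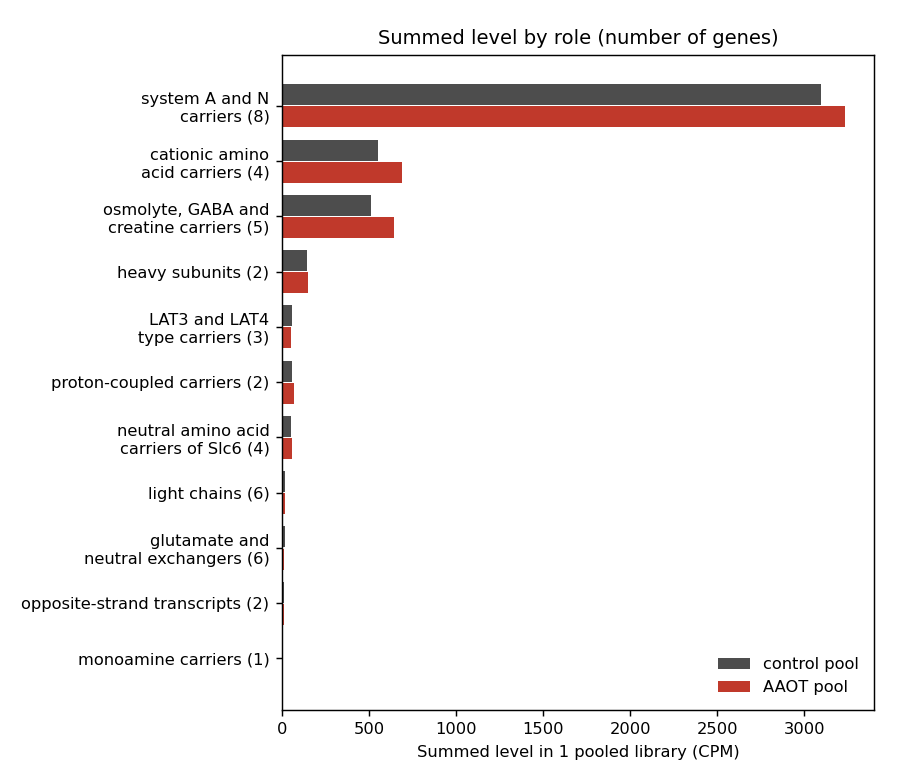
Summed CPM of the 43 genes by role in the control pool (grey bars) and the AAOT pool (red bars), 1 pooled library each, with the number of genes in brackets. System A and N carriers sum to 3095 and 3237 CPM, and the cationic and osmolyte groups are the ones with the next widest gaps, at 553 and 688 CPM and at 510 and 641 CPM.

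Promoter sequence was available from RefSeq (GRCm38.p6) for 30 of the 43 genes and 13 of the 18 above the floor, as windows of 300 bases from 250 before to 50 after a gene start. The windows were searched on both strands for TGATGNAA, the composite site of ATF4 and C/EBP factors that serves the amino acid response, and for TGACNNNGC, the core of the antioxidant response element bound by NRF2. The first was found in 2 of the 30 genes (6.67%), against 4.51% of all 27025 genes with a window, and the second in 8 of 30 (26.7%), against 13.99%. A gene with more windows has more places for a match, and the 30 genes had 48 windows where all genes had 32851. By window, the first was in 3 of 48, against 3.97% of all windows, and the second in 10 of 48, against 12.4%. Slc38a3, Slc6a6 and Slc7a2 were among the genes without a window. The following stretches carry such a match in capitals, and are shown for the genes with the lowest and the highest ratio, Slc1a4 and Slc36a1, for the osmolyte carrier Slc6a13 and, as a carrier near equality, for Slc38a2.
Slc1a4 (chr11:20332694-20332757, minus strand): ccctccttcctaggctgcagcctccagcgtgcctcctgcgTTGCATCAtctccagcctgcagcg
Slc36a1 (chr11:55204301-55204359, plus strand): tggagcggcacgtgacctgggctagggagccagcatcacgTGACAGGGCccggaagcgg
Slc6a13 (chr6:121300166-121300254, plus strand): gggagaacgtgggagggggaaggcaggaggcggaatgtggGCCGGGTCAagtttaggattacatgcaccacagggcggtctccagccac
Slc38a2 (chr15:96699709-96699795, minus strand): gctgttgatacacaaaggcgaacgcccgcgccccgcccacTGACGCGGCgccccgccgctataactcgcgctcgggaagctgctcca

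In Slc1a4 the capitals mark the ATF4 composite site, read on the opposite strand, which begins 4 bases before the gene start. In the other 3 they mark the antioxidant response element core, on the gene's own strand in Slc36a1 and Slc38a2 and on the opposite strand in Slc6a13, where it begins 82 bases before the start. Of the members above the floor, 4 held this core, with ratios of 1.31 in Slc36a1, 1.247 in Slc6a13, 1.08 in Slc6a9, whose stretches are not shown, and 1.04 in Slc38a2. Slc6a12, whose ratio has an interval that overlaps that of Slc6a13, had neither motif in its 5 windows. A match is a string of letters in this window and not a measured binding site.

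Genes of the amino acid response that ATF4 controls were within 1.5-fold where they were above the floor, and some of the scarcer ones were lower. Of 28 listed genes 16 were above the floor, 6 of them above 0 and 10 below, 0 past 1.5-fold in either direction, with a median log2 ratio of -0.09. Atf4 itself was at 77.8 and 69.5 CPM, 1.12-fold lower (1.04 to 1.21), and its partner gene Cebpg was 1.29-fold lower (1.19 to 1.397). The lipoprotein receptor gene Vldlr, also on this list, was 1.43-fold higher (1.248 to 1.64), and the seryl-tRNA synthetase gene Sars 1.16-fold lower (1.04 to 1.28). Asparagine synthetase, Asns, the standard marker of amino acid shortage, had 2 and 1 reads. Below the floor, the intervals of 5 listed genes with at least 20 reads excluded equality, and these genes were named after their values were seen. The matching share of all genes below the floor was not computed, so whether 5 is more than usual is not known. Chac1, a glutathione-degrading enzyme, had 91 and 31 reads and was 2.65-fold lower (1.74 to 4.12). The hormone gene Fgf21 had 53 and 17 reads and was 2.81-fold lower (1.601 to 5.18), and the transcription factor gene Atf3 had 30 and 11 reads and was 2.46-fold lower (1.197 to 5.44). The other two were higher, Aldh18a1 by 1.89-fold (1.01 to 3.67) on 17 and 29 reads and Ddit4 by 1.33-fold (1.06 to 1.67) on 144 and 172 reads.

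Genes that report amino acids to mTORC1 had a median of 0.02 over 25 genes above the floor, with 14 above 0, 11 below and 0 past 1.5-fold. The folliculin partner Fnip2 was 1.48-fold higher (1.38 to 1.59), at 78.5 and 116 CPM. Sesn3, a sestrin gene, was 1.31-fold higher (1.13 to 1.52).

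Of 10 listed amino acid carriers outside the 7 families, 6 were above the floor, 4 above 0 and 2 below, 0 past 1.5-fold, with a median of 0.09. The aromatic amino acid carrier Slc16a10 (TAT1) was at 174 and 203 CPM, 1.17-fold higher (1.11 to 1.23), and the lysosomal histidine and peptide carrier Slc15a4 was 1.32-fold higher (1.19 to 1.46). The vesicular glutamate carrier gene Slc17a8 was 1.35-fold lower (1.21 to 1.49), at 50.1 and 37.2 CPM. Partner proteins and regulators of the carriers had a median of 0.01 over 9 genes, 0 of them past 1.5-fold, with Mapk15 1.45-fold higher (1.17 to 1.79), Sgk3 at a ratio of 0.852 and Rnf5 at 1.07, both with intervals that include equality.

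Among enzymes that make or break down the carried amino acids, 28 had at least 10 CPM. Of these, 1 was higher and 2 were lower by 1.5-fold or more, beside 2.07% and 1.39% of all genes, 18 were above 0 and 10 below, and the median was 0.19. The higher gene was the proline dehydrogenase Prodh, at 85.8 and 129 CPM, 1.51-fold higher (1.41 to 1.61). The lower genes were Csad, given above, and the tryptophan dioxygenase Tdo2, at 935 and 515 CPM.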

How the data were processed

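Liver RNA of 2 pooled libraries, 1 per group, was analysed from 1 table of the authors' deposited CPM with 15526 gene symbols, 1 column per library, matched through the codes that close the sample titles. Per the submitters' processing notes, the build was mm10 and the tools included RSEM, Bowtie2, Trimmomatic 0.38 and edgeR, with no role for each. Which annotation was counted is not stated. Libraries were directional and depleted of ribosomal RNA, per the labels' protocols. In each column 100% of the deposited CPM were whole-number multiples of a single step (relative tolerance 1e-06), which gave back the reads. No count model was run on them, since 1 library per group leaves no residual degrees of freedom. No gene had fewer than 2 reads over both libraries.

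Ratios, the constant of 1 CPM, the floor of 10 CPM, intervals (Clopper-Pearson, conditional on the sum of reads) and lists were as described above. The members and lists were chosen with earlier results of these data known. All members above the floor were named, members below it with at least 20 reads, and up to 3 genes of each companion list farthest from no change, with others named for their role after their values were seen. Of the list symbols, 4 were found under an older symbol. All 43 members matched RefSeq (GRCm38.p6, the assembly called mm10) and GENCODE M21. Each of the 18 members above the floor had at least 90% unique 50-base stretches. The steps were tested on simulated reads. Scripts ran on scipy 1.17.1, pandas 2.3.3, numpy 2.4.6, matplotlib 3.10.9 and Python 3.11.15.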

Additional observations from a re-analysis of the deposited data

How the results depend on the processing

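The counts of followed amino acid transporters past 1.5-fold and 2-fold were 0 in both directions under 5 other scalings of the libraries, added constants of 0.1 and 5 CPM, floors of 1 CPM (31 genes) and 50 CPM (12 genes), and no floor (43 genes). The settings with another floor or none kept the constant of 1 CPM, which holds genes of few reads near equality. The count without a floor therefore says little on such genes. Slc7a6, for instance, had a plain ratio of 6.10 but 1.496 with the constant. Their median log2 ratio lay between 0.08 and 0.13 under these 10 alternatives. The count of genes at least 1.2-fold higher was 5 or 6 of 18 under the scalings and constants. It was 10 of 31 when the floor was 1 CPM, 5 of 12 when it was 50 CPM and 12 of 43 without one. The count at least 1.2-fold lower was 0 at the 50 CPM floor and 1 otherwise. The shares of all genes past 1.2-fold at these other settings were not computed, so these counts cannot be set against other genes. The scalings moved the median of all genes by at most 0.05. Of the 18 genes, 2 changed sign under some scaling, Slc38a4 and Slc3a1. Of 126 log2 ratios recomputed for single genes under the scalings and constants, 121 stayed inside the counting interval. Using the median transcript length moved the level per length of 13 genes beyond counting error. No paired analysis was possible because each group has 1 library, and for the same reason no library could be left out. Differences between mice, pools or preparations cannot be told apart from AAOT in this design.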
